A study of Homo sapiens with 2 samples.

Results

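The genes described here are those named as fusion partners in Ewing sarcoma (EwS), and they belong to the FET family (EWSR1 and TAF15) and the ETS family (FLI1, ERG, FEV, ETV1 and ETV4). They are 7 of 20098 protein-coding genes on chromosomes 1 to 22 and X. A peak was counted for a gene when at least 1 of its bases lay within 1000 bp of any annotated transcription start site (TSS) of that gene, here called its promoter, or in the gene body. By this rule the genes held 59 of the 66954 peaks. The members were chosen by name and not by their peaks, although earlier results of these data were known.

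The peaks came from A673 cells, an established EwS cell line that carries an EWSR1-FLI1 fusion. MYBL2, a MYB transcription factor known for its role in the cell cycle, was mapped by chromatin immunoprecipitation and sequencing (ChIP-seq) in 1 library. The control was 1 input library, made from chromatin that had been sheared but not immunoprecipitated. The labels call the antibody one against MYBL2, whereas the study's methods describe it as recognising activated, phosphorylated MYBL2. Both libraries were of cells labelled wild type with no treatment named, and with 1 library per group there was no replicate error and no test of any difference.

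FET proteins are nuclear RNA-binding proteins whose low-complexity amino-terminal part activates transcription strongly when it is joined to a DNA-binding domain. ETS proteins are transcription factors that share a DNA-binding domain for a GGAA core. In EwS a chromosomal rearrangement puts the first exons of a FET gene, most often EWSR1, in front of the last exons of an ETS gene, most often FLI1 and less often ERG, FEV, ETV1 or ETV4. The fusion is therefore transcribed from the FET promoter and carries the ETS DNA-binding domain, and it binds stretches of repeated GGAA as well as single ETS sites. TAF15 is a paralogue of EWSR1 that is a fusion partner mainly in other tumours.

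Fold enrichment, the authors' measure of peak strength, divides the ChIP fragments piled up at the summit by the number expected there from the input, the local background. It had a median of 3.79 over all peaks, with a median pileup of 20 fragments, and the pileup and background of every peak could be recovered from the deposited values. The background cannot fall under a floor of 3.45 fragments, the genome average, and its median over all peaks was 4.25 fragments. With fragments assumed to be as long as the narrowest peak, 164 bp, this floor amounts to about 56800000 ChIP reads. Intervals below are exact 95% Poisson intervals of the pileup. They cover the counting error of the ChIP pileup only, because there was no replicate library, and they take each fragment as an independent molecule. For fold enrichment the background was taken as exact, so the counting error of the input was left out.

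A promoter peak was found at 6 of the 7 genes, against 59.4% of all protein-coding genes. At the canonical TSS, the start of the annotation's representative transcript, 5 of the 7 had a peak, against 55.8% of coding genes. A promoter peak of at least 5-fold enrichment was present at 3 genes (EWSR1, TAF15 and ETV1), against 49.6%, and in all 3 it was at the canonical TSS, against 46.7%. A body peak was present at 6 of the 7, against 64.2%, and so was a peak of either kind, against 65.4%. With so few genes, none of these shares can be set apart from that of coding genes. The members differed among themselves: EWSR1, TAF15 and ETV1 had their strongest peak at the canonical promoter, ETV4 and FEV had weaker promoter peaks, FLI1 had peaks at its far end only, and ERG had none.

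Most of the 59 peaks were weak and intronic. Their median fold enrichment was 3.37, and 9 of them reached 5. Of all 59, 19 lay at a promoter, 7 of these at a canonical promoter, and 40 lay in gene bodies outside promoters. The latter had a median of 3.19, against 3.54 for all peaks of the series outside promoters. By summit, 48 lay in introns of the canonical transcript, 6 in untranslated exon parts, 1 in a coding exon (ETV1 exon 4) and 4 outside that transcript.

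**Figure D1:**
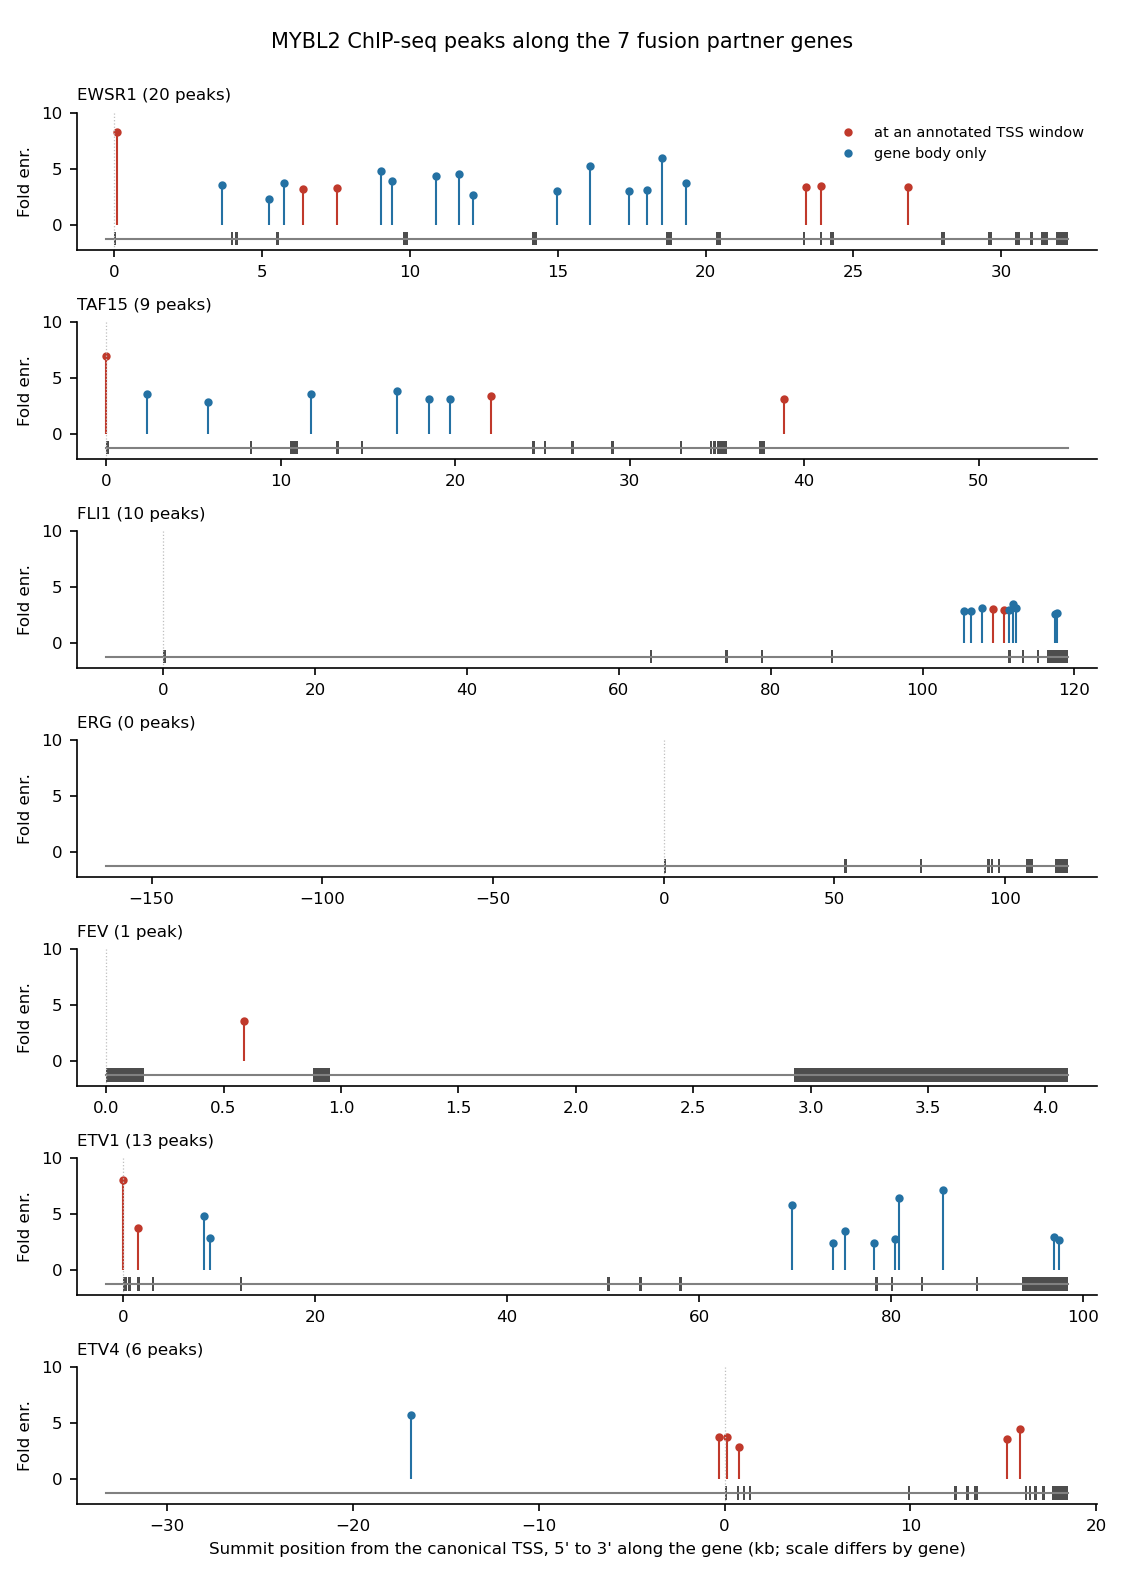
Fold enrichment (y axis) of every peak over the 7 genes against the distance of its summit from the canonical TSS in kb (x axis, 5′ to 3′, a different scale for each gene). Red points are at an annotated TSS window and blue points in the gene body only, the grey line is the annotated gene and dark boxes are exons of the canonical transcript. The 10 peaks of FLI1 lie together at its 3′ end, while 16 of the 20 peaks of EWSR1 lie before its intron 7.

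EWSR1, the usual 5′ partner, lies on the plus strand of chromosome 22 (hg19, 29663998 to 29696515, 32.5 kb, canonical transcript of 17 exons). It held 20 peaks, of which 6 were at promoters and 14 elsewhere in the body. The promoter peak, chr22:29663077-29667429, was 4353 bp wide and covered the canonical TSS, with a fold enrichment of 8.27 (6.46 to 10.4) from 69 fragments over a background of 7.46. This was stronger than 90.3% of all peaks, but stronger than only 46.2% of the best promoter peaks of bound coding genes. The same peak reached the promoter of RHBDD3, a rhomboid-family gene on the opposite strand whose TSS lies 287 bp away, so the signal cannot be assigned to either gene. The sequences around the summits of the promoter peak (chr22:29664326-29664424, plus strand, from the start codon into intron 1) and of the next strongest peak (chr22:29682728-29682828, plus strand, intron 6) are shown, with a short ETS core and a CHR element in capitals. A CHR element is the TTTGAA or TTCGAA sequence found in promoters of cell cycle genes, here read on the opposite strand.
EWSR1 promoter summit: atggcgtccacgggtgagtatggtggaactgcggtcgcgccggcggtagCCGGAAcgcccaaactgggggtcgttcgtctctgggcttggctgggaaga
EWSR1 intron 6 summit: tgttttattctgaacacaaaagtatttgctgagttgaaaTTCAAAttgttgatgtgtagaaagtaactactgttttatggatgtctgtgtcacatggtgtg

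The intron 6 peak (chr22:29682687-29682878) had a fold enrichment of 5.97 from 27 fragments over a background of 3.69. Its summit lay in front of exon 7, at -346 bp from the start of intron 7, the intron in which EWSR1 breaks in the common type 1 fusion. The third peak above 5-fold, at 29680270 to 29680520, also lay in intron 6 and had a value of 5.30. All 3 EWSR1 peaks above 5-fold were thus on the 5′ side of that intron, where the promoter peak lies by position. Beyond the gene, peaks above 5-fold were found on both flanks within 100 kb. They had fold enrichments of 6.25 and 8.93 upstream and of 5.84 and 6.76 downstream.

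TAF15, the second FET member, lies on the plus strand of chromosome 17 (34136486 to 34191619, 55.1 kb) and held 9 peaks. Its strongest peak was at the canonical TSS (chr17:34135950-34136764, summit 6 bp upstream), with a fold enrichment of 6.96 (4.77 to 9.85) from 30 fragments at the background floor. The promoter of the lncRNA gene ENSG00000270829 on the opposite strand, with a TSS 587 bp away, was covered by the same peak. The remaining TAF15 peaks were weak, ranging from 2.90 to 3.82, and 7 of them lay in introns 1 to 7. The last, with a fold enrichment of 3.15, lay beyond the canonical transcript, at -719 bp from another TSS of the gene. The stretch upstream of the TSS that holds the summit (chr17:34136432-34136487, plus strand) is shown with its CCAAT box, the pentamer of many cell cycle promoters, in capitals as read from the opposite strand.
TAF15 promoter summit: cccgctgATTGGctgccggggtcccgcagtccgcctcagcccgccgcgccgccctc

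FLI1, the usual 3′ partner, encodes an ETS factor of blood and endothelial cells. It lies on the plus strand of chromosome 11 (128556430 to 128683162, 126.7 kb, 9 exons in the canonical transcript) and held 10 peaks, none of them at the canonical TSS. The first 112.8 kb of the gene, 89.0% of its length, held no peak at all. The first peak started at 128669231, and all 10 lay in the stretch from there to 128681776. Upstream of the gene the nearest peak was 93.0 kb away, and downstream it was 537 bp away. The fold enrichments were low and close to each other, from 2.58 to 3.50, so that every FLI1 peak was below the median of all peaks, and all pileups were between 15 and 24 fragments. The counting intervals of the weakest (1.56 to 4.04) and the strongest FLI1 peak (2.27 to 5.18) overlapped, and no order among the 10 could be read at this depth. There were 2 promoter peaks, at alternative TSSs inside the gene, with fold enrichments of 3.06 (1.90 to 4.69) and 2.92. The summit region of the strongest FLI1 peak, in intron 6 (chr11:128675839-128675939, plus strand), is shown with its CCAAT box in capitals, since this intron lies inside the part of FLI1 that the fusion keeps.
FLI1 intron 6 summit: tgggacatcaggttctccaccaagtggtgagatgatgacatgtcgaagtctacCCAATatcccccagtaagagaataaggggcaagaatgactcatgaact

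To place the peaks relative to the fusion, each gene was divided at the intron that the type 1 fusion of A673 joins, which fuses exon 7 of EWSR1 to exon 6 of FLI1. That A673 carries this type is general knowledge and was not read from these data, and the break points within the introns were not determined. In EWSR1, intron 7 spans 29683124 to 29684594 (1471 bp). On its 5′ side, the part kept in the fusion, 19.1 kb held 16 peaks, or 8.37 per 10 kb. Intron 7 itself held 1 peak, and on its 3′ side 11.9 kb held 3 peaks, or 2.52 per 10 kb. The last 5.27 kb of EWSR1 were free of peaks. Relative to length, peaks on the 5′ side were thus the more frequent. This side holds the canonical promoter, and genes with many body peaks mostly had their first summit near the 5′ end (below). Leaving out promoter peaks kept 13 on the 5′ side, while all 3 on the 3′ side were at alternative promoters. No other gene was divided in this way, so whether EWSR1 differs from other genes was not tested. Keeping only peaks with a background within 1.1 times the floor left 1 on the 5′ side and all 3 on the 3′ side. That filter selects on the background, which itself differed between the sides, so the counts left do not compare their peak frequency.

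In FLI1, intron 5 spans 128651919 to 128675260 (23.3 kb). On its 5′ side, the part lost from the fusion, 95.5 kb held 0 peaks. Intron 5 held 5 peaks, all in its last 6030 bp, the first of them starting 17312 bp into the intron. On its 3′ side 7.90 kb held 5 peaks, or 6.33 per 10 kb, of which 3 were in intron 6 and 2 in the untranslated part of exon 9. A further 2 peaks of similar strength followed within 100 kb downstream of the gene, the nearer with a fold enrichment of 3.04. Called peaks were thus absent from the side that the fusion lacks and present on the side that it keeps, where all were weak. Of the 5 on the kept side, 1 reached a −log10 q of 5 and 0 reached 5-fold enrichment. The list does not tell a rearranged copy of either gene from an unrearranged one.

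The local background of the peaks, which comes from the input and not from the ChIP, also differed between the sides of EWSR1. On the 5′ side of EWSR1 it ran from 3.69 to 7.46 fragments (median 5.60), and in 14 of 16 peaks it was above the median of all peaks. On the 3′ side it was 3.45 to 3.52 fragments, at or just above the floor in 3 of 3 peaks. All 5 peaks found within 100 kb downstream of EWSR1 were likewise close to the floor, from 3.45 to 3.73. The 7 peaks within 100 kb upstream of EWSR1, next to the kept side, ran from 3.64 to 5.60, and 2 of them were within 1.1 times the floor. In FLI1 all 10 backgrounds were above the median of all peaks, from 4.54 to 7.46, and the 2 peaks beyond the gene had 5.91 and 9.33 fragments. The single peak within 100 kb upstream of FLI1 had 3.49. In EWSR1 all listed backgrounds on the kept side were thus above those on the lost side, the closest being 3.69 and 3.52 fragments. The lost side had only 3 values, all at or near the floor, and no interval was computed for any background. Neighbouring values need not be independent, since the first 3 EWSR1 peaks all had 7.46. In FLI1 no peak on the lost side gave a value to set beside those of the kept side.

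The ChIP pileup at the EWSR1 summits was also higher on the 5′ side, with a median of 24.5 fragments (range 13 to 69). On the 3′ side it was 14 (range 14 to 15). A peak over a higher background needs more fragments to be called. Pileup, background and fold enrichment of listed peaks are therefore not independent of each other. The fold enrichment, in which the background is divided out, differed less, with medians of 3.64 and 3.37. A pileup of 14 has a 95% interval of 7.65 to 23.5 fragments, which overlapped with those of all EWSR1 peaks on the 5′ side but the promoter peak. More copies of a stretch of DNA, which raise ChIP and input alike, and more binding cannot be told apart by the pileup, and the part of the background in the number of peaks on either side was not tested. The list gives no value outside peaks, so the background over the peak-free 5′ part of FLI1 is unknown here.

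**Figure D2:**
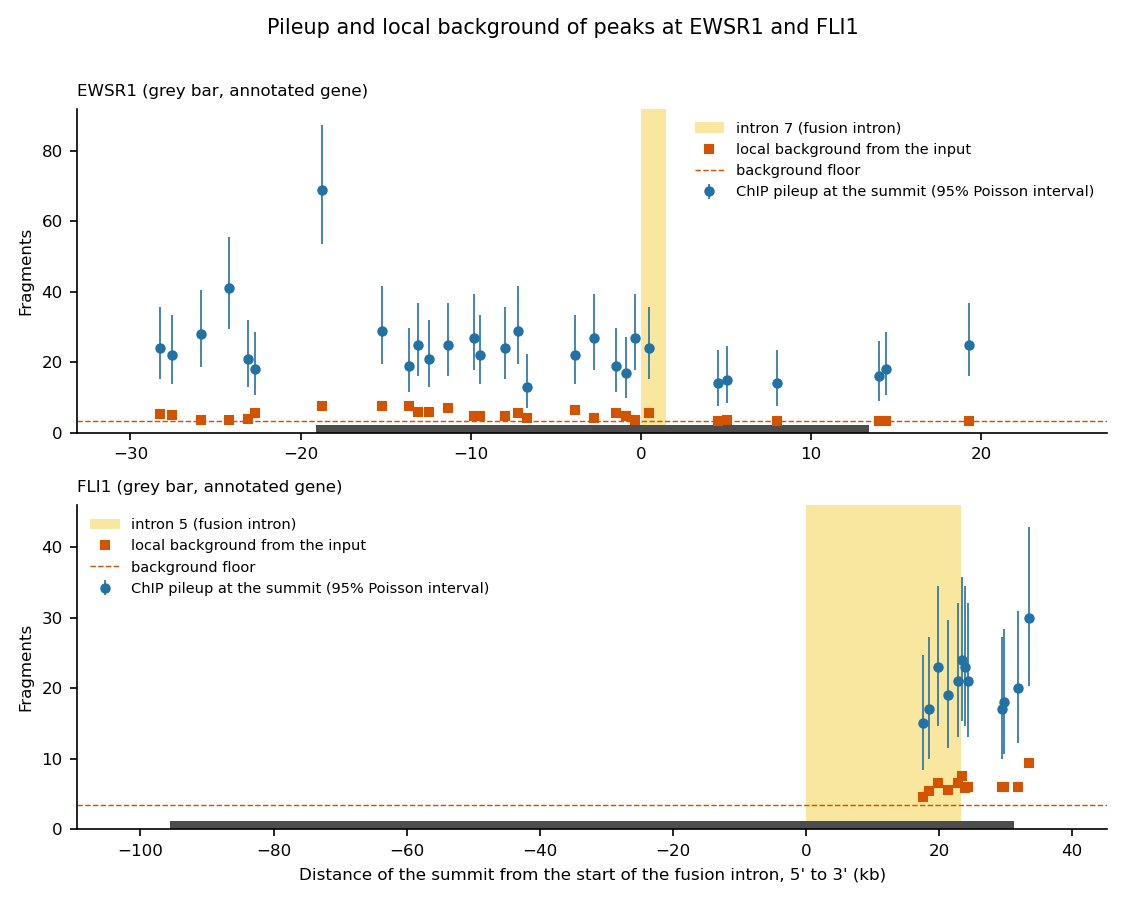
ChIP pileup at the summit with its 95% Poisson interval (blue) and local background from the input (orange), both in fragments on the y axis, for peaks in and within 12 kb of EWSR1 (top) and FLI1 (bottom). The x axis is the distance in kb from the start of the fusion intron (yellow), the grey bar is the gene and the dashed line the background floor of 3.45 fragments. The background lies above the floor at EWSR1 peaks up to intron 7, at or just above the floor after that intron, and above the floor at all FLI1 peaks.

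The place of the FLI1 peaks was set beside that of other genes by a measure chosen after these values had been seen, the position of the first body summit as a percentage of gene length from the 5′ end. Among 1286 coding genes with at least 10 body peaks the median was 0.147% and the 90th percentile 8.01%. FLI1 stood at 89.2%, and 2 genes in all, itself and SH3D19 (94.8%), were at or beyond that value. EWSR1 (1.16%) and ETV1 (1.78%) began with a peak at their 5′ end, both under the 90th percentile. Since FLI1 was looked at because of this pattern, and the cut of 10 body peaks equals its own number, its rank is a description.

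**Figure D3:**
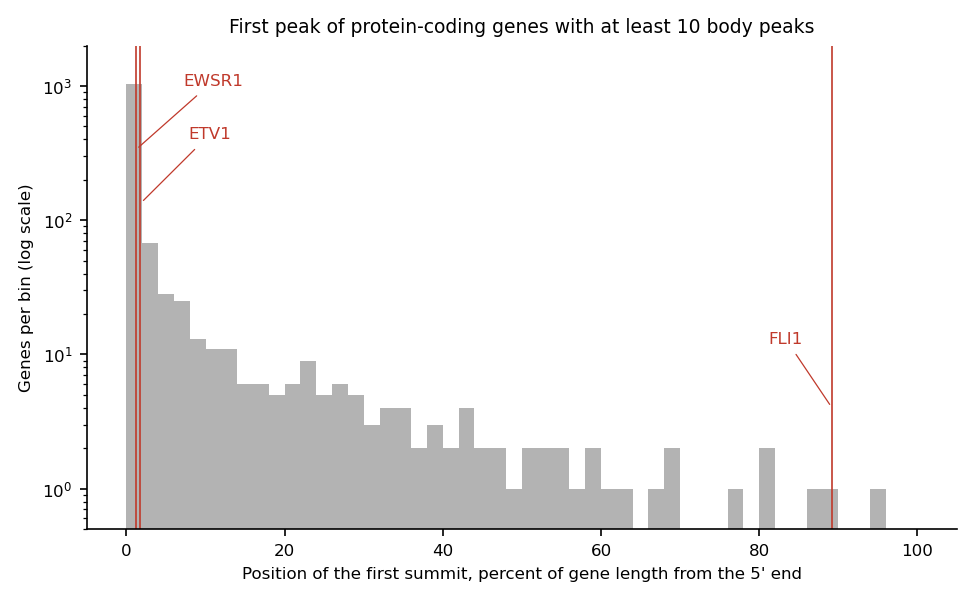
Number of protein-coding genes (y axis, log scale) by the position of their first body summit in percent of gene length from the 5′ end (x axis, bins of 2%), for the 1286 genes with at least 10 body peaks. Summits before the annotated start are drawn at 0, and red lines mark EWSR1 (1.16%), ETV1 (1.78%) and FLI1 (89.2%).

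ERG, the closest relative of FLI1 and the second most common 3′ partner, was the member without any peak. The gene lies on the minus strand of chromosome 21 (39751949 to 40033704) and is 281.8 kb long, with 11 annotated TSSs. The nearest peaks were 144.0 kb upstream and 523.4 kb downstream of it. A long gene without a promoter or body peak was not rare, since 308 of 1498 coding genes of at least 200 kb (20.6%) had none. The CpG content of the canonical ERG promoter, as an observed/expected ratio, was 0.370, near the median of coding promoters without a peak (0.380) and under that of promoters with a peak (0.796). This canonical TSS (39870401) lies inside the annotated gene. Ratios at the other ERG TSSs were not computed, and a link with the lack of peaks was not tested. The other members had ratios from 0.68 (FEV) to 0.90 (EWSR1), and that of FLI1 was 0.81 although its canonical promoter had no peak.

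FEV, a short ETS gene known for its role in serotonin neurons, lies on the minus strand of chromosome 2 (219845809 to 219849906, 4.10 kb). It held 1 peak (chr2:219849200-219849459), 586 bp downstream of the canonical TSS in intron 1 and at -123 bp from another TSS. The fold enrichment was 3.59 (2.11 to 5.78) from 15 fragments at the background floor, and 43.0% of all peaks were weaker. The summit region is shown as the only bound sequence of FEV (chr2:219849270-219849370, minus strand), and it held none of the motifs searched.
FEV intron 1 summit: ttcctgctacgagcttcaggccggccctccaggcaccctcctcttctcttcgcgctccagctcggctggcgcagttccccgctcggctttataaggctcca

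ETV1 and ETV4 encode ETS factors of the PEA3 group. ETV1 lies on the minus strand of chromosome 7 (13930854 to 14031050, 100.2 kb) and held 13 peaks. A wide promoter peak (chr7:14028212-14031991, 3780 bp) had its summit 25 bp downstream of the canonical TSS and a fold enrichment of 8.05 (5.90 to 10.7) from 44 fragments over a background of 4.59. Downstream of the first 4 peaks a stretch of 59.2 kb held none, and the other 9 followed in the 3′ part of the gene. These included the pair of strongest peaks outside promoters of all members. Fold enrichments there were 7.15 (5.12 to 9.75) in intron 12, 6.44 (4.54 to 8.89) in intron 11 and 5.85 (3.98 to 8.31) in intron 9. Their intervals overlapped with that of the promoter peak. None of the 3 was at an annotated TSS of ETV1. The summits in introns 12 and 11 are shown, as sites about as strong as a promoter but far inside the gene, at chr7:13943828-13943928 and chr7:13948438-13948538 on the minus strand, the former with a CHR element in capitals as read from the opposite strand.
ETV1 intron 12 summit: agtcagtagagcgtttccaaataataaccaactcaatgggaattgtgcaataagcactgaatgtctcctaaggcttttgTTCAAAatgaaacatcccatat
ETV1 intron 11 summit: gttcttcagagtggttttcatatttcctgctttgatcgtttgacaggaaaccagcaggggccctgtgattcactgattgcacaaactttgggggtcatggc

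ETV4 lies on the minus strand of chromosome 17 (41605212 to 41656988, 51.8 kb) and held 6 peaks, 5 of them at promoters. Peaks at the canonical promoter had fold enrichments of 3.82, 3.80 and 2.92, and 2 peaks at a TSS cluster 15.2 to 15.9 kb downstream had 3.59 and 4.49 (2.79 to 6.89). The weakest canonical promoter peak also lay in a promoter window of DHX8, an RNA helicase gene on the opposite strand. That window belongs to an alternative DHX8 start, since the canonical TSS of DHX8 lies 62365 bp from that of ETV4. The strongest ETV4 peak was outside promoters (chr17:41640155-41640679), with a fold enrichment of 5.71 (3.80 to 8.26) from 26 fragments. Its summit lay at -16855 bp from the canonical TSS, inside the gene only because longer transcripts start further upstream. Its summit region (chr17:41640513-41640613, minus strand) held none of the motifs searched and is shown because the peak ranked first for this gene.
ETV4 upstream summit: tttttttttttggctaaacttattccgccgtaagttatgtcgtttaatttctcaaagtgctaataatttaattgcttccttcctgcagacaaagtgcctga

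Backgrounds outside EWSR1 and FLI1 were as follows. In ETV4 6 of 6 peaks and in TAF15 8 of 9 peaks lay within 1.1 times the floor, as did 37.1% of all peaks. In ETV1 none did, and its backgrounds ran from 3.82 to 8.40 (median 4.59). Of all peaks, 20.3% were at the floor itself, so a background above the floor was the usual case in the series.

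To order the promoters by strength, the best promoter peak of each member was set beside that of the other ETS genes. The order was EWSR1 (8.27), ETV1 (8.05), TAF15 (6.96), ETV4 (4.49), FEV (3.59) and FLI1 (3.06). EWSR1, ETV1 and TAF15 had overlapping intervals, and so had ETV4, FEV and FLI1. The interval of FLI1 did not overlap with those of EWSR1, ETV1 and TAF15, and that of FEV overlapped with TAF15 but not with EWSR1 or ETV1. These separations were narrow for FLI1 and TAF15 (4.69 against 4.77) and for FEV and ETV1 (5.78 against 5.90). The intervals also leave out the counting error of the input. ETV4 overlapped with all of the other bound members. No member reached the median of bound coding genes (8.67, quartiles 5.94 and 12.1), although the intervals of EWSR1, ETV1 and TAF15 contained it. Among bound coding genes, the best promoter peak was weaker in 44.4% than in ETV1, in 33.9% than in TAF15, in 11.4% than in ETV4, in 4.11% than in FEV and in 1.35% than in FLI1.

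Among 23 other ETS genes, 15 had a promoter peak, against 59.4% of all protein-coding genes, and 11 had one at the canonical TSS, against 55.8%. A promoter peak of at least 5-fold enrichment was present at 11, against 49.6%. No difference from these shares was tested. The strongest promoter peaks were those of GABPA (15.5), ETV3 (14.5), ELF1 (14.4) and ELF2 (13.5), and the lower bounds of GABPA, ETV3 and ELF1 lay above the interval of every member. ETV5, the relative of ETV1 and ETV4, had 8.77 (6.51 to 11.6), which overlapped with both. ETS1 (3.37) and ELF3 (2.90) were close to FLI1, with overlapping intervals. Neither a promoter nor a body peak was found for 7 of the 23 genes, ETV3L, ETV7, ELF5, SPDEF, SPI1, SPIB and SPIC. Of all coding genes, 65.4% had a peak of either kind. EHF had 1 body peak only.

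**Figure D4:**
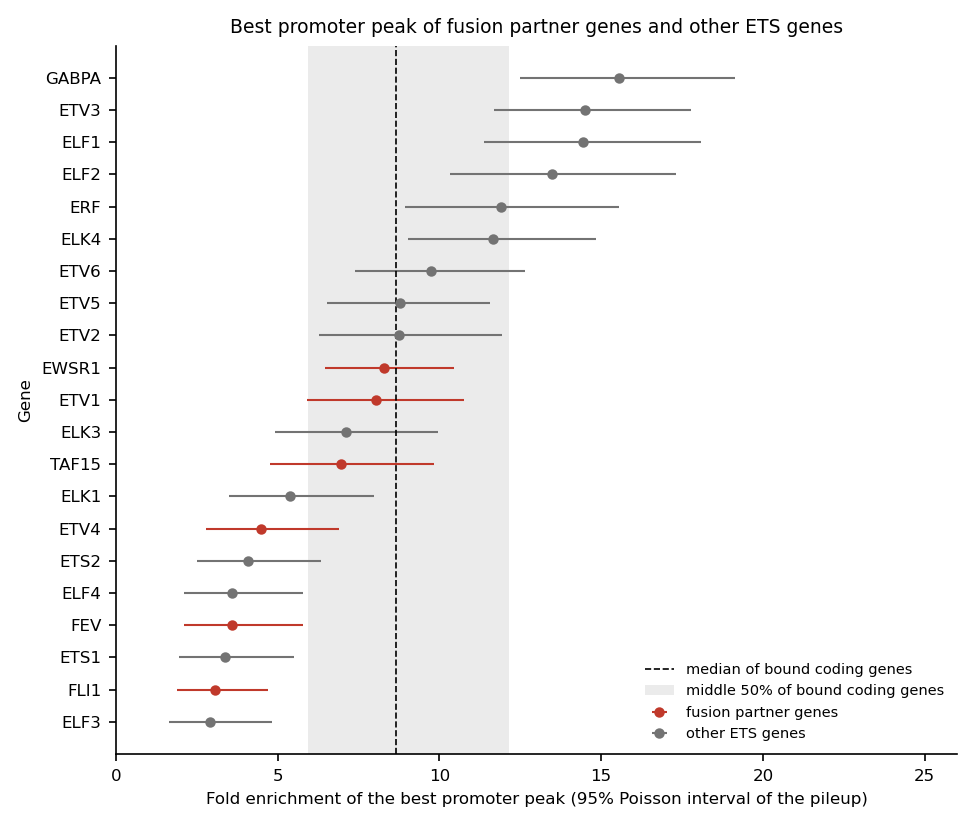
Fold enrichment of the best promoter peak (x axis) with the 95% Poisson interval of its pileup for fusion partner genes (red) and other ETS genes (grey) that had one. The dashed line is the median of bound coding genes (8.67) and the shaded band runs from 5.94 to 12.1; GABPA stands highest at 15.5 and FLI1 is among the lowest at 3.06.

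Because the genes differ in length, body peaks were also compared per 100 kb. EWSR1 had 61.5 body peaks per 100 kb, more than 95.5% of coding genes, and its peaks covered 33.1% of the gene. FEV (24.4), TAF15 (16.3), ETV1 (12.97), ETV4 (11.6) and FLI1 (7.89) followed. The median of coding genes was 2.39 per 100 kb, and 7.04 among those with a body peak, so that FLI1 was near the latter despite its peak-free 5′ part. The value of FEV rested on 1 peak. With only the canonical transcript taken as the body, ETV4 had 21.6 per 100 kb and stood above TAF15 (21.2) and ETV1 (13.2), so the order of these genes depends on the annotation used. Among the other ETS genes, the short genes ETV2 (95.9 per 100 kb from 3 peaks) and ERF (66.1 from 5 peaks) were denser than EWSR1, and ELK3 (37.1) and ELF2 (18.8), with 28 body peaks each, were less dense.

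**Figure D5:**
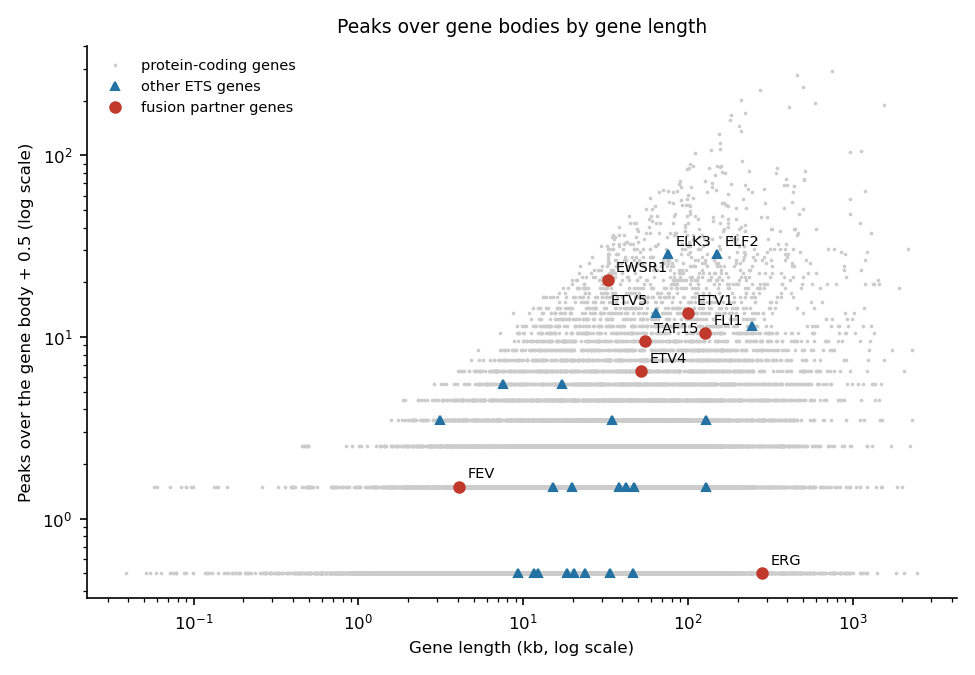
Body peaks plus 0.5 (y axis, log scale) against gene length in kb (x axis, log scale) for protein-coding genes (grey), other ETS genes (blue) and the 7 fusion partner genes (red). EWSR1, with 20 peaks in 32.5 kb, lies near the upper edge for its length, and ERG, with 0 peaks in 281.8 kb, lies at the bottom.

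Finally, short motifs were sought on either strand within 50 bp of each summit. The ETS core CCGGAAGT, the E2F site TTTNGCGC and runs of at least 3 GGAA in tandem, the kind of repeat that EWSR1-FLI1 binds, were found at 0 of 59 member summits, and they were rare at all summits (0.705%, 0.314% and 0.0956%). The short ETS core CCGGAA, which the ETS core contains, was at 1 of 59 member summits, the EWSR1 promoter shown above, against 3.67% of all peaks. Counted at promoters alone, it was at 1 of 19 member summits, against 7.59%. The MYB site AACGG was at 1 of 59, an internal ETV4 promoter, against 5.08% of all peaks. The CHR element was at 10 of 59 (16.9%), against 9.68% of all peaks, and of these 4 were in EWSR1 and 4 in TAF15. At promoters it was at 3 of 19, against 6.41%, and outside promoters at 7 of 40, against 11.4%. The CCAAT box was at 15 of 59 (25.4%), against 13.03%, and of these 7 were in EWSR1 and 5 in FLI1. Its counts were 3 of 19 at promoters, against 10.4%, and 12 of 40 outside them, against 14.4%. A match describes the letters under the summit and not a bound site. Of the 6 best promoter summits, only that of TAF15 held the CCAAT box and none the CHR element.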

How the data were processed

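ChIP-seq of A673 cells gave 1 MYBL2 ChIP library and 1 input library, grouped by the antibody in the labels. By the methods stated for the study, the authors aligned 100 bp single-end reads to hg19 (Bowtie2), and narrow peaks were called against the input by MACS2 (versions 2.1.10 and 2.0.10 in the submitters' processing notes). What a later cleaning step removed is not stated. The deposited list gives each peak's position, a score, the fold enrichment (a linear ratio), and the −log10 p-value and −log10 q-value of MACS2. These are the authors' values, the weakest q being 0.0493, and they were used to rank and filter peaks.

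With 1 added to both pileup and background in the fold enrichment, and p read as a Poisson tail above the pileup, whole-number pileups were found that met both values within 0.001 for 66954 of 66954 peaks. The recovery was tested on simulated data. Genes were those of GENCODE 44 lifted to GRCh37, whose coordinates are those of hg19; 0 peaks ran past the end of a chromosome. Peaks were assigned by overlap of at least 1 base, with Python 3.11.15, pandas 2.3.3 and pysam 0.24.0. Sequences were read from the GRCh37 assembly. CpG ratios cover 500 bp either side of a TSS. No test was run, as each group had 1 library. Named genes were the 7 members, 23 other ETS genes, and genes sharing a member's promoter peak (1 further gene is not reported here); SH3D19 was named after its value was seen. The members and lists were chosen with earlier results of these data known. Alternatives were −log10 q or fold enrichment of at least 5, other promoter windows, the summit or the canonical TSS only, merging within 100 bp, the canonical transcript as body, the gene midpoint in place of the fusion intron, promoter peaks left out, 100 bp either side of the summit, and ranking by −log10 q.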

Additional observations from a re-analysis of the deposited data

How the results depend on the processing

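Peaks of at least 5-fold enrichment gave 3 members with a promoter peak, 9 peaks over the members, 3 EWSR1 peaks on the 5′ side of the fusion intron and 0 FLI1 peaks on the 3′ side. A −log10 q of at least 5 gave 20 peaks, 10 on the EWSR1 side and 1 on the FLI1 side. Splitting FLI1 at its midpoint put 10 of its peaks on the 3′ side. In alternatives chosen after seeing the data, counting summits inside the fusion intron also gave 10 for FLI1. Keeping only peaks with a background within 1.1 times the floor left 1 on the EWSR1 5′ side and all 3 on its 3′ side. This reverses the order of the counts, but the background that the filter uses itself differed between the sides. Of the 23 other ETS genes, 11 to 16 had a promoter peak under the alternatives. Of 100 alternative values 71 stayed within 1.5 times or within the counting interval. Of the 72 for single genes or motifs 19 moved beyond it. Among these were the body peaks per 100 kb of ETV4, which went from 11.6 to 21.6 with the canonical transcript as body. These counts overstate stability, since some values could not move. A filter leaves a best promoter peak unchanged wherever that peak passes it, and ERG stayed at 0 body peaks. Alternatives that removed a best promoter peak, as for FLI1 and FEV at 5-fold enrichment, were not counted. No paired analysis was possible because neither group holds more than 1 library, and for the same reason no library could be left out. Pileups of 12 to 24 fragments, typical of these peaks, did not resolve the order of weak peaks beyond counting error.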
